A study of Homo sapiens with 6 samples.

Results

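The C/EBP transcription factors and their Tribbles regulators were followed through the conversion of a human B cell leukemia line into induced macrophages (iMacs), with and without the chromatin protein CTCF. The 8 genes were chosen by symbol from the count table and are *CEBPA*, *CEBPB*, *CEBPD*, *CEBPE*, *CEBPG*, *CEBPZ*, *TRIB1* and *TRIB2*. They are 8 of the 30017 symbols listed, and 8 of the 8 were among the 14758 genes with enough counts to be tested.

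C/EBP proteins bind DNA as dimers through a basic leucine zipper (bZIP) and switch on genes of the granulocyte, monocyte and macrophage lineages; C/EBPα alone is able to turn B cells into macrophage-like cells. C/EBPβ and C/EBPδ are raised by inflammatory and cytokine signals, C/EBPε acts late in granulocyte formation, and C/EBPγ lacks the activation domains of its relatives and pairs with them or with ATF4. *CEBPZ* carries a related symbol but encodes a CCAAT-binding protein without the bZIP domain. Tribbles proteins are pseudokinases: TRIB1 and TRIB2 hold C/EBPα next to the ubiquitin ligase COP1, which marks it for degradation.

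RNA-seq had been performed in 6 libraries of BLaER cells, all from a subclone in which CTCF is fused to an auxin-inducible degron (BLaER subclone CTCF-AID), with 2 replicates in each of 3 conditions. The cells were taken at 0 h as B cells (0 h), at 96 h of conversion without auxin (96 h control), and at 96 h with auxin added together with the conversion factors (CTCF-depleted). Conversion was set off in both 96 h conditions with 17β-estradiol, IL-3 and CSF-1, and all 6 libraries carry the degron and an inducible C/EBPα transgene. The study asked how chromatin contacts relate to expression during conversion, and used RNA-seq to measure the effect of CTCF depletion on expression. The line is 1 subclone of a leukemia, and auxin-treated cells without the degron were not analysed here, so the effects of auxin and of losing CTCF cannot be told apart. Counts under *CEBPA* mix reads of the transgene, as far as they map there, with those of the endogenous gene.

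Total counts ranged from 9273470 to 12718780 per library. The 10 B cell markers were all called lower at 96 h in the control, and their summed level was between 3228 and 3250 CPM (read counts in proportion to the scaled library size) at 0 h and between 400 and 404 CPM in the 96 h control, and the 10 macrophage markers were all called higher, from 80.0 to 87.1 up to between 5460 and 5708 CPM. Among the macrophage markers, *CD163* and *MSR1* were at 0 at 0 h, and *CD14*, *MRC1*, *LYZ* and *ITGAM* at 0.150 to 0.534 CPM. All of these passed the filter on low counts through the 96 h libraries. In the CTCF-depleted libraries, the B cell sum was 345 to 360 and the macrophage sum 5206 to 5251 CPM, most of it *LYZ* at 4158 CPM. Against the control, 3 B cell markers were called lower there (*RAG1* -1.94, *IGLL1* -1.18 and *VPREB1* -0.89), 2 macrophage markers lower (*MRC1* -1.33 and *MSR1* -0.61) and 1 higher (*ITGAM* 1.15). Of all genes tested, 25.4% were called higher and 22.9% lower in control cells against 0 h. The shares between CTCF-depleted and control cells were 5.41% higher and 7.03% lower. All 5 erythroid markers were at 0 counts in every library, and of 6 T and NK cell markers the defining *CD3D* was at 0, while the 3 tested (*CD4*, *NCAM1* and *NKG7*) were called higher in control cells and the sum of the list was 36.4 to 39.6 CPM at 0 h, 125 to 129 in the control and 112 to 122 after depletion. Neutrophil granule markers summed to at most 0.375 CPM at 0 h, to 41.9 to 45.9 CPM in the control and to 45.6 to 48.8 CPM after depletion. *CD4* was at 0 at 0 h and passed the filter on low counts through the 96 h libraries. The part of these other lineage genes in the results was not tested. *CTCF* mRNA, which the degron does not target, differed by a log2 fold change of 0.10 (SE 0.05, adjusted p = 0.119) between CTCF-depleted and control libraries.

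Levels are given as CPM after TMM scaling, with the mean ± SD of 2 libraries. A gene was called higher or lower in edgeR's quasi-likelihood test where its adjusted p was below 0.01 and its log2 fold change beyond 0.6 in size, with Benjamini-Hochberg adjustment over all genes tested. With 2 libraries in each condition, a two-sided exact permutation test of a single gene cannot go below p = 0.333, so every adjusted p below comes from the edgeR model, which shares its estimate of the spread between genes. The study calls the replicates biological; the labels do not say whether they were separate cultures, and the p-values measure the spread between these libraries. In bulk RNA, fewer cells of a type and less RNA per cell cannot be told apart.

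From 0 h to 96 h in control cells, 4 of the 8 genes were called higher (*CEBPB*, *CEBPD*, *CEBPE* and *TRIB1*) and 1 was called lower (*TRIB2*). Over all genes tested, 25.4% were called higher and 22.9% lower in that comparison. At 96 h, CTCF-depleted cells had more *TRIB1* and *TRIB2* and less *CEBPD* than control cells, so that 2 genes were called higher and 1 lower, against 5.41% and 7.03% of all genes tested. Between CTCF-depleted cells at 96 h and cells at 0 h, 3 genes were called higher (*CEBPB*, *CEBPD* and *TRIB1*) and 1 lower (*TRIB2*), against 27.2% and 25.2% of all genes. The 3 comparisons share libraries in pairs and are given side by side only. The median log2 fold change over all genes tested was 0.02, -0.03 and 0.02 in these comparisons.

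**Figure D1:**
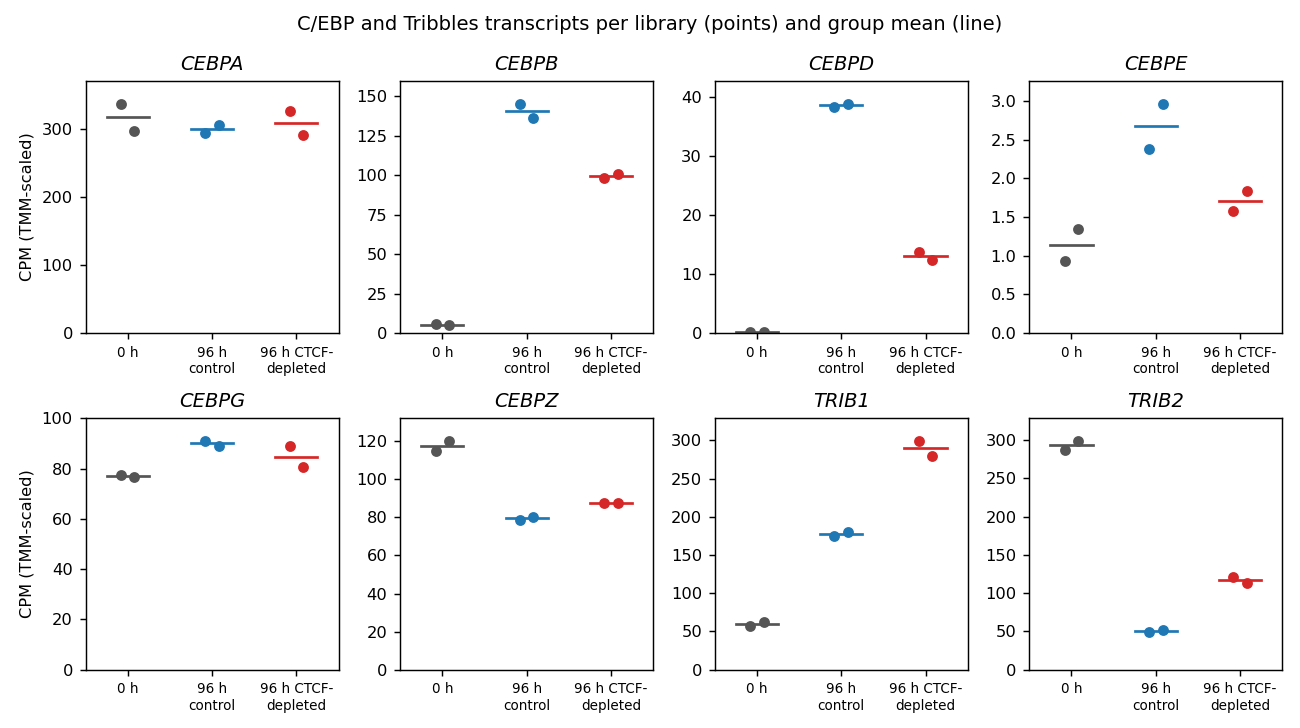
TMM-scaled CPM of each gene (y axis from 0, a scale of its own in each panel) in the 2 libraries (points) of the 0 h, 96 h control and 96 h CTCF-depleted conditions, with the group mean as a line. *CEBPB* and *CEBPD* were near the bottom of their panels at 0 h, *TRIB1* was highest in the CTCF-depleted libraries, *TRIB2* was highest at 0 h, and the *CEBPA* libraries of the 3 conditions overlapped.

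*CEBPA*, the founding regulator of the myeloid lineage and the gene on the transgene, lies on chromosome 19 from 33299934 to 33302534 (hg38, minus strand). Its level was 336 and 297 CPM in the 0 h libraries, 294 and 305 CPM in the 96 h control libraries, and 326 and 290.0 CPM in the CTCF-depleted libraries. The libraries of the 3 conditions overlapped. The log2 fold change was -0.08 (SE 0.05, adjusted p = 0.180) from 0 h to control and 0.04 (SE 0.05, adjusted p = 0.577) from control to CTCF-depleted, the latter with a 95% interval of -0.06 to 0.14. With 0 h replicate 2 left out, the first of these values was -0.21 (adjusted p = 4.83e-04). The 0 h libraries, taken before estradiol was added, thus held *CEBPA* reads of transgene and endogenous gene together at a level that overlapped with that at 96 h.

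The inducible transgene of this line is known as a fusion of C/EBPα with the hormone-binding part of the estrogen receptor, which is encoded by *ESR1*. Reads under *ESR1* stood at 565 ± 23.6 CPM at 0 h, 462 ± 25.0 CPM in the 96 h control and 482.5 ± 22.6 CPM after CTCF depletion. The difference between 0 h and control was a log2 fold change of -0.29 (SE 0.05, adjusted p = 2.22e-07), within the fold change threshold, and that between CTCF-depleted and control was 0.06 (SE 0.05, adjusted p = 0.317). The counts do not separate transgene from endogenous *ESR1* reads. *CEBPA-DT*, the non-coding transcript divergent from the *CEBPA* start and listed as *CEBPA-AS1*, was at 3.75 ± 1.70, 4.63 ± 1.18 and 6.28 ± 0.153 CPM in the same order. Its log2 fold change was 0.37 (adjusted p = 0.199) in control cells and 0.43 (adjusted p = 0.153) between CTCF-depleted and control, and it was called higher between CTCF-depleted cells and 0 h, at 0.80 (SE 0.25, adjusted p = 0.00331).

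*CEBPB*, whose protein takes over from C/EBPα in inflammatory and stress responses of macrophages, lies on chromosome 20 from 50190830 to 50192668 (plus strand). It was at 5.47 and 5.10 CPM at 0 h, at 145 and 136 CPM in the 96 h control, and at 98.3 and 100.4 CPM after CTCF depletion. The libraries of the 3 conditions did not overlap. In control cells the level rose 26.7-fold, a log2 fold change of 4.74 (SE 0.10, adjusted p = 4.89e-44), and 601 of the other genes tested had a larger one. The CTCF-depleted cells reached 70.6% of the control level, at a log2 fold change of -0.50 (SE 0.07, adjusted p = 5.41e-09) with a 95% interval of -0.63 to -0.37, which did not pass the fold change threshold. Of all genes tested, 29.4% had an adjusted p below 0.01 at any fold change in that comparison. Against 0 h, *CEBPB* rose 18.9-fold in CTCF-depleted cells (log2 fold change 4.24, SE 0.10, adjusted p = 7.17e-41). The non-coding gene *CEBPB-AS1* overlaps *CEBPB* on the other strand, and the strand setting of the counting is not given in the sources used here.

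The stretch before the upstream RefSeq start of *CEBPB* is shown because among the promoter windows of these genes it alone held a match to the core of the CTCF motif, searched on both strands as CCA, AG and GGC with 2 free bases between each, in windows from 250 bases before to 50 bases after each RefSeq start. That motif was found in 2.41% of 35116 such windows. The 250 bases at chr20:50190333-50190582 (GRCh38.p14, plus strand) read as follows, with the match in capitals, from 50190446 to 50190457.
CEBPB: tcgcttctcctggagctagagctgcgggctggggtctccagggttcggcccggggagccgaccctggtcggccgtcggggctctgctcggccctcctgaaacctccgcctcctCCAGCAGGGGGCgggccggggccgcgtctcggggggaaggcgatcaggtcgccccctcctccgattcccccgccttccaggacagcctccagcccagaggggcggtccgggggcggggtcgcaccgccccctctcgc
Windows were given for 6 of the 8 genes (*CEBPA*, *CEBPB*, *CEBPE*, *CEBPG*, *CEBPZ* and *TRIB2*). A match is a string of letters and not a measured binding site.

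*CEBPD*, an acute-phase and cytokine-induced family member, lies on chromosome 8 from 47736913 to 47738164 (minus strand). At 0 h it had 1 and 3 counts, against 434 and 419 counts in the 96 h control and 148 and 135 counts after CTCF depletion. In CPM, these were 0.103 and 0.225, then 38.3 and 38.8, then 13.7 and 12.4. The groups did not overlap, and the level at 0 h was at the limit of detection, so that *CEBPD* passed the filter on low counts through its 96 h libraries. Control cells had 222 times the 0 h level by the ratio of the summed counts (853 against 4) after scaling for library size, with an exact 95% interval of 86.4 to 816 that covers counting error only. The CTCF-depleted cells had 75.2 times the 0 h level (283 against 4 counts, scaled likewise, 29.1 to 278). The log2 fold changes of the model were 7.70 (SE 0.26, adjusted p = 3.93e-34) and 6.14 (SE 0.33, adjusted p = 1.49e-24), and with so few counts at 0 h their size depends on the prior count.

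At 96 h, *CEBPD* was 2.95-fold lower in CTCF-depleted than in control cells, at 33.9% of the control level. The log2 fold change was -1.56 (SE 0.12, adjusted p = 9.70e-17) with a 95% interval of -1.79 to -1.33. Only 248 of the other genes tested had a lower value in that comparison. Each library left out in turn gave a call in the same direction. *CEBPB* and *CEBPD* were thus both lower after depletion, the first within and the second beyond the fold change threshold, while the *CEBPA* libraries overlapped with the control.

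*CEBPE*, the late granulocyte factor, lies on chromosome 14 from 23117036 to 23120256 (minus strand) and was at low counts throughout. It had 9 and 18 counts at 0 h, 27 and 32 in the 96 h control, and 17 and 20 after CTCF depletion. In CPM, the means were 1.14 ± 0.298, 2.67 ± 0.410 and 1.71 ± 0.190. Both control libraries were above both 0 h libraries, and the CTCF-depleted libraries lay between. The rise in control cells was called, at a log2 fold change of 1.18 (SE 0.38, adjusted p = 0.00461), but the call was lost with DESeq2 (adjusted p = 0.0424) and with any of the 4 libraries left out (edgeR adjusted p from 0.0135 to 0.0600). Between CTCF-depleted and control cells the value was -0.64 (SE 0.36, adjusted p = 0.158), with a 95% interval of -1.34 to 0.06, so that neither no difference nor a loss of more than the fold change threshold lay outside it. Against 0 h, CTCF-depleted cells differed by 0.54 (SE 0.42, adjusted p = 0.230).

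*CEBPG*, whose product works mainly as a partner in dimers, lies 71.151 kb from *CEBPA* between their starts, on chromosome 19 from 33373685 to 33382686 (plus strand). It was at 77.5 and 76.7 CPM at 0 h, 91.2 and 89.0 CPM in the control, and 89.2 and 80.5 CPM after depletion. The control libraries were above the 0 h libraries, and the CTCF-depleted libraries overlapped with the control. The log2 fold change in control cells was 0.23 (SE 0.07, adjusted p = 0.00313), within the threshold, and that between CTCF-depleted and control was -0.09 (SE 0.07, adjusted p = 0.343), with a 95% interval of -0.22 to 0.05. Its second RefSeq start is preceded by a match to the C/EBP-ATF composite motif, searched as TGATGCAA, which joins a C/EBP and an ATF4 recognition sequence and is shown because C/EBPγ and ATF4 bind such sites together. The motif was found in 0.866% of the windows, and in no other window of the 6 genes for which windows were given. The 30 bases at chr19:33374060-33374089 (GRCh38.p14, plus strand) are given with the match in capitals.
CEBPG: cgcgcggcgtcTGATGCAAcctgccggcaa
A C/EBP motif searched as TTGCNNAA (10.5% of all windows) was in none of these genes' windows, and CCAAT (34.6% of all windows) was in those of *CEBPB* and *CEBPG*.

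*CEBPZ*, the CCAAT-binding nucleolar protein that is no bZIP factor, lies on chromosome 2 from 37201612 to 37231596 (minus strand). Its level fell from 115 and 120.3 CPM at 0 h to 78.8 and 80.3 CPM in the control, and was 87.8 and 87.3 CPM after depletion. The 3 groups did not overlap. The log2 fold change was -0.56 (SE 0.06, adjusted p = 2.06e-11) in control cells and -0.43 (SE 0.06, adjusted p = 3.57e-08) in CTCF-depleted cells against 0 h, both within the threshold (the first was -0.60 and called without 0 h replicate 1), and 0.14 (SE 0.07, adjusted p = 0.0959) between the 96 h conditions. *CEBPZOS*, which overlaps it on the other strand and is listed as *CEBPZ-AS1*, was called lower in control cells, at -0.93 (SE 0.07, adjusted p = 8.85e-17), and stood at 47.7 ± 0.919 and 47.3 ± 2.52 CPM in the 96 h control and CTCF-depleted libraries. Without the strand setting, reads of the overlapping parts of these genes cannot be told apart.

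**Figure D2:**
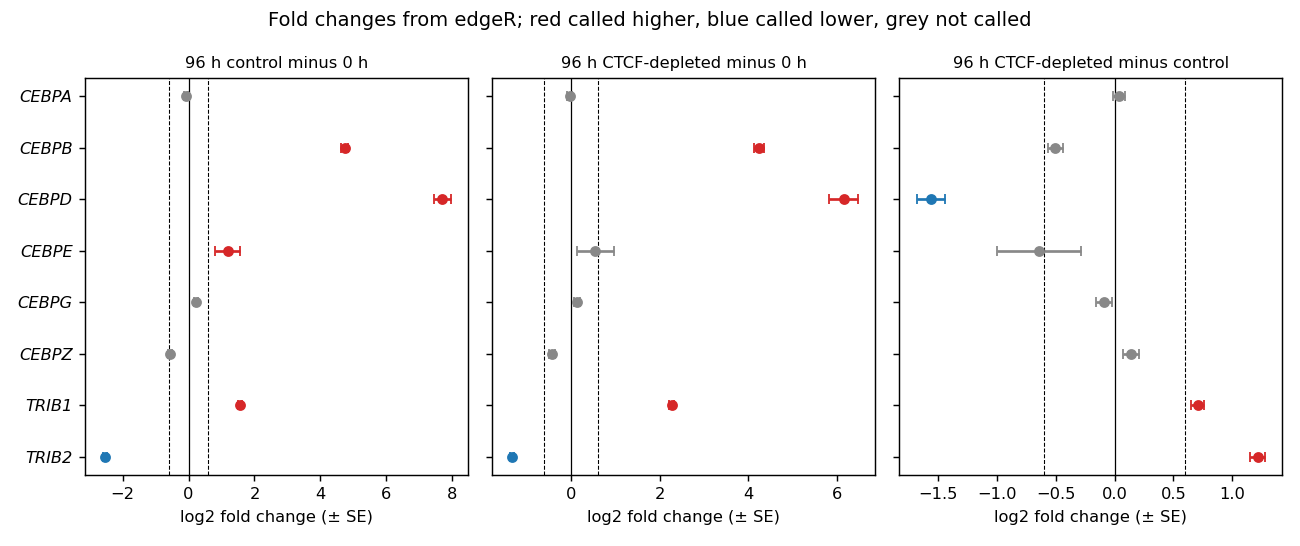
Log2 fold change ± SE (x axis) of each gene (y axis) for 96 h control minus 0 h, CTCF-depleted minus 0 h and CTCF-depleted minus control, with red for genes called higher, blue for genes called lower, grey for others, and dashed lines at the fold change threshold of 0.6. In the third panel *CEBPD* at -1.56 and *TRIB2* at 1.21 were the farthest from 0, and *CEBPB* at -0.50 lay inside the threshold.

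Levels of different genes were compared only per length, as CPM per kilobase of exon (CPM per kb). At 0 h the order of the bZIP genes was *CEBPA* (122 ± 10.8), *CEBPG* (libraries at 18.9 and 19.1), *CEBPB* (2.87 ± 0.141), *CEBPE* (0.646 ± 0.169) and *CEBPD* (0.131 ± 0.0688). In the 96 h control it was *CEBPA* (115 ± 3.01), *CEBPB* (76.5 ± 3.34), *CEBPD* (30.8 ± 0.282), *CEBPG* (22.2 ± 0.379) and *CEBPE* (1.52 ± 0.233). After CTCF depletion it was *CEBPA* (118 ± 9.84), *CEBPB* (54.0 ± 0.799), *CEBPG* (20.9 ± 1.51), *CEBPD* (10.4 ± 0.716) and *CEBPE* (0.968 ± 0.108). Neighbours in these orders did not overlap in their libraries, and the orders were the same with the length of the longest transcript. *CEBPD* thus stood above *CEBPG* in control cells and below it in CTCF-depleted cells, where the *CEBPG* libraries overlapped with the control.

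As a share of the summed CPM per kb of the 5 bZIP genes, *CEBPA* counts made up 84.3% ± 1.16 at 0 h, 46.8% ± 1.26 in the 96 h control and 57.8% ± 1.66 after depletion. *CEBPB* took 1.99% ± 0.0514, 31.1% ± 1.33 and 26.4% ± 1.83 of the sum, and *CEBPD* 0.0929% ± 0.0546, 12.5% ± 0.124 and 5.09% ± 0.0718. Without *CEBPA*, whose transgene reads cannot be set apart, *CEBPG* was the main transcript of the rest at 0 h, with 83.9% ± 0.450. In the 96 h libraries *CEBPB* was, with 58.4% ± 1.12 in control and 62.6% ± 1.88 in CTCF-depleted cells. Of that remainder *CEBPD* held 23.5% ± 0.790 in control and 12.1% ± 0.644 in CTCF-depleted cells.

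**Figure D3:**
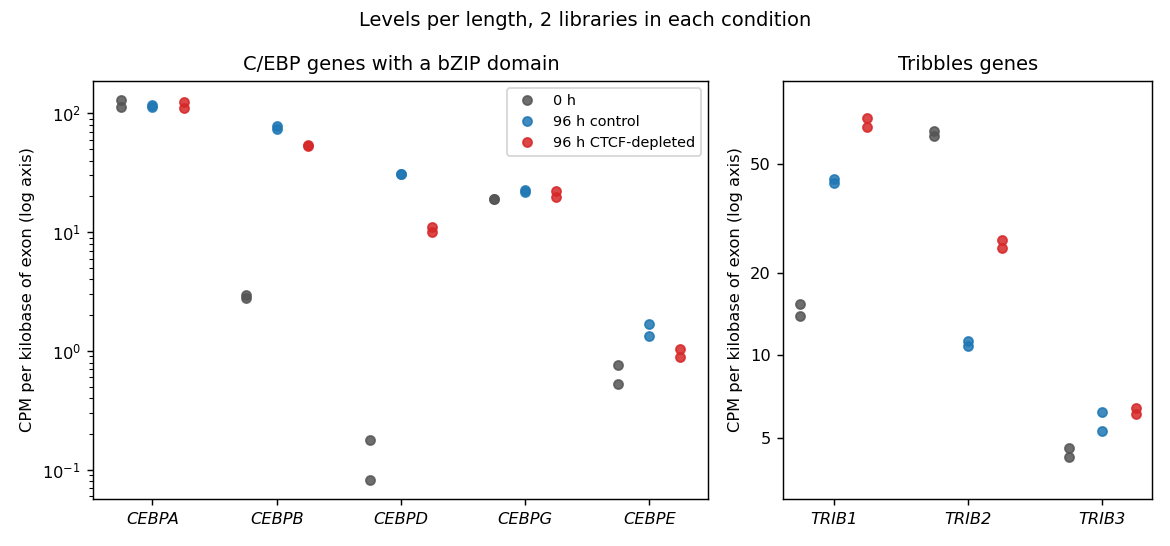
CPM per kilobase of exon (log axis) of the 5 bZIP C/EBP genes (left) and the 3 Tribbles genes (right) in the 2 libraries of the 0 h (grey), 96 h control (blue) and CTCF-depleted (red) conditions. *CEBPB* and *CEBPD* moved from far below *CEBPG* at 0 h to above it in the 96 h control, and *TRIB1* and *TRIB2* changed places between 0 h and 96 h.

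*TRIB2*, known as an oncogene in myeloid leukemia through the loss of C/EBPα, lies on chromosome 2 from 12716910 to 12742734 (plus strand). It was at 288 and 299 CPM at 0 h, 49.2 and 51.5 CPM in the 96 h control, and 121 and 113 CPM after CTCF depletion. The groups did not overlap, and the CTCF-depleted libraries lay between the others. The level was 5.83-fold lower in control cells than at 0 h (log2 fold change -2.54, SE 0.06, adjusted p = 8.50e-42) and 2.52-fold lower in CTCF-depleted cells (-1.33, SE 0.05, adjusted p = 4.07e-30). Between the 96 h conditions it was 2.32-fold higher in CTCF-depleted cells, at 1.21 (SE 0.06, adjusted p = 2.26e-23). A larger value was measured for 454 of the other genes tested. The windows of *CEBPA*, *CEBPE*, *CEBPZ* and *TRIB2* held no match to any of the 4 motifs searched. The *CEBPB* stretch above ends just before a RefSeq start. The stretch of *TRIB2*, shown as an example without a match, ends just before its GENCODE start and is not the whole window searched. It reads, over 224 bases up to the annotated start at chr2:12716686-12716909 (GRCh38.p14, plus strand):
TRIB2: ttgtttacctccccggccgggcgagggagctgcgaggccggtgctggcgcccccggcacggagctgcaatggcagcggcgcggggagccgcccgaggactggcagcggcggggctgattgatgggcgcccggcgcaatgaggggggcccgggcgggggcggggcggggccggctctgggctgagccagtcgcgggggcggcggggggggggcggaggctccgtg

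*TRIB1*, the Tribbles gene needed for tissue macrophages of the M2-like kind in mice, lies on chromosome 8 from 125430358 to 125438403 (plus strand). It was at 56.8 and 62.9 CPM at 0 h, 175 and 180.4 CPM in the 96 h control, and 299.5 and 279 CPM after CTCF depletion. The 3 groups did not overlap. It rose 2.95-fold in control cells (log2 fold change 1.56, SE 0.06, adjusted p = 2.81e-31) and 4.81-fold in CTCF-depleted cells (2.27, SE 0.06, adjusted p = 6.60e-40). At 96 h the level was 1.63-fold higher in CTCF-depleted than in control cells, with a log2 fold change of 0.70 (SE 0.05, adjusted p = 2.51e-17) and a 95% interval of 0.60 to 0.81. The lower end of that interval was close to the fold change threshold of 0.6, and edgeR's test against the threshold itself (glmTreat) gave an adjusted p of 0.0887.

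Per length, *TRIB2* was the more abundant of the pair at 0 h, with 64.3 ± 1.83 against 14.6 ± 1.05 CPM per kb for *TRIB1*, a ratio of *TRIB2* to *TRIB1* of 4.41 ± 0.192. At 96 h the order was turned, and the ratio of *TRIB1* to *TRIB2* was 3.93 ± 0.0339 with and 2.76 ± 0.00889 without CTCF. The sum of the pair was 76.9 and 80.9 CPM per kb at 0 h, 53.4 and 55.3 in the 96 h control, and 99.5 and 92.8 after CTCF depletion. Control cells thus had a lower and CTCF-depleted cells a higher sum than cells at 0 h, with no overlap between libraries. *TRIB3*, the family member that does not degrade C/EBPα, was at 4.43 ± 0.244, 5.76 ± 0.620 and 6.26 ± 0.216 CPM per kb. Its log2 fold change was 0.38 (SE 0.13, adjusted p = 0.00568) in control cells and 0.12 (SE 0.12, adjusted p = 0.474) between the 96 h conditions, and was within the threshold in both.

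Set against the change in CPM that control cells went through between 0 h and 96 h, CTCF-depleted cells went through 33.6% of it for *CEBPD*, 69.5% for *CEBPB*, 72.7% for *TRIB2* and 195% for *TRIB1*. The first 3 therefore lay between their 0 h and control levels, and *TRIB1* lay beyond its control level. *CEBPE*, *CEBPA*, *CEBPG* and *CEBPZ*, none of them called between the 96 h conditions, also lay between, at 37.1%, 49.0%, 59.6% and 78.9%. Each value uses the same 0 h libraries. Over all genes tested, both libraries of a group lay beyond both of the other for 86.7% in control against 0 h, for 87.8% in CTCF-depleted against 0 h and for 67.9% in CTCF-depleted against control, so that separation of the libraries was common.

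The ligase and kinase genes that work with Tribbles proteins mostly stayed within the fold change threshold in control cells. Of 11 pathway genes tested, 1 was called higher and 0 lower from 0 h to 96 h, against 25.4% and 22.9% of all genes. The median log2 fold change of the list was 0.07. With no threshold on the fold change and an adjusted p below 0.05, 4 were higher and 4 lower. The share of all genes at that setting was not computed, so this count is not read as a result. *COP1*, the ligase itself and listed as *RFWD2*, was at 78.5 ± 0.147 CPM at 0 h, 101 ± 2.91 in control and 103 ± 5.44 in CTCF-depleted cells, with log2 fold changes of 0.36 (adjusted p = 3.50e-06) and 0.03 (adjusted p = 0.769). *MAP2K1*, which encodes the kinase MEK1 that binds TRIB1, was the gene called higher in control cells, at 0.83 (SE 0.09, adjusted p = 1.68e-12). Between the 96 h conditions 0 were called higher and 1 lower, against 5.41% and 7.03% of all genes. The median was -0.09, and at an adjusted p below 0.05 with no fold change threshold, 1 was higher and 3 were lower. That count likewise has no share of all genes beside it. At an adjusted p below 0.01 and any fold change, 29.4% of all genes passed in this comparison. The gene called was *DET1*, whose product joins COP1 to the CUL4A ligase: it was at 14.2 CPM at 0 h, 20.8 CPM with and 8.82 CPM without CTCF, a log2 fold change between the last of -1.23 (SE 0.14, adjusted p = 1.38e-10). *DDB1*, of the same ligase, stood at -0.26 (SE 0.05, adjusted p = 1.01e-05).

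bZIP genes whose proteins can pair with C/EBP factors included 7 called higher and 2 called lower in control cells among 10 tested, against 25.4% and 22.9% of all genes, with a median log2 fold change of 1.38 against 0.02 over all genes. That median includes *BATF2*, at 0 at 0 h and 0.0904 CPM in the 96 h control, which was not called there. With its 0 h level set to a floor of 3 counts, the median of the list was 1.16. *FOS* rose by 4.03 (SE 0.09, adjusted p = 8.19e-42) and *DDIT3*, which encodes the stress-induced C/EBP inhibitor CHOP, by 1.30 (SE 0.17, adjusted p = 1.41e-09). *ATF4*, of the amino acid response, and *ATF5* were called lower, at -0.89 and -2.25 (adjusted p = 6.41e-24 and 1.19e-31). After CTCF depletion 3 were called higher and 1 lower, against 5.41% and 7.03% of all genes, with a median of 0.26 against -0.03. *JUN*, of the AP-1 dimer, was at 112 CPM in control against 186 CPM in CTCF-depleted cells (log2 fold change 0.74, SE 0.06, adjusted p = 2.37e-15), and its relative *JUNB* was at 194 and 94.6 CPM (-1.04, SE 0.06, adjusted p = 4.49e-21). *ATF3* was called higher at 0.74 (SE 0.16, adjusted p = 1.63e-04), as was *BATF2*, which stayed below 1 CPM and passed the filter on low counts through the CTCF-depleted libraries. *FOS* was at 145 and 146 CPM and *DDIT3* at 13.5 and 12.1 CPM (adjusted p = 0.876 and 0.422).

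Cofactors and antagonists of C/EBP factors were called higher in 7 and lower in 4 of 12 cases in control cells. Over all genes tested 25.4% were called higher and 22.9% lower, and the median of the list was 0.68. *SPI1*, which encodes the myeloid partner factor PU.1, stood at 2.90 (SE 0.06, adjusted p = 3.74e-45). *PAX5*, the B cell factor that C/EBPα opposes, stood at -3.12 (SE 0.05, adjusted p = 8.44e-50). *ID1*, among those called higher, was at 0.178 CPM at 0 h and passed the filter on low counts through the 96 h libraries. Between the 96 h conditions 0 were called higher and 1 lower, against 5.41% and 7.03% of all genes, with a median of -0.06. The gene called was *ID1*, an inhibitor of helix-loop-helix factors, at 53.5 CPM with and 27.4 CPM without CTCF (-0.96, SE 0.09, adjusted p = 1.51e-13). *SPI1* stood at 319 and 267 CPM, a log2 fold change of -0.25 (SE 0.05, adjusted p = 1.42e-05) within the threshold.

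Among receptors and signal transducers that feed into C/EBP factors, 11 genes were tested, *ESR2* having too few counts. In control cells 8 were called higher and 0 lower (median 2.01), against 25.4% and 22.9% of all genes. That count and median include *CSF2RA* and *CSF3R*, at 0.0516 and 0.661 CPM at 0 h. Both passed the filter on low counts through the 96 h libraries. *IL6R*, the interleukin 6 receptor, rose by 8.38 (SE 0.10, adjusted p = 2.84e-57), *IL3RA*, the alpha chain of the IL-3 receptor, by 4.88 (SE 0.14, adjusted p = 5.93e-38), and *CSF1R*, the CSF-1 receptor, by 3.05 (SE 0.06, adjusted p = 5.67e-45). *CSF2RB*, the chain that signals for the IL-3 receptor, stood at -0.59 (SE 0.08, adjusted p = 2.53e-09) in control cells, within the threshold, and was called lower in CTCF-depleted cells against 0 h, at -0.69 (SE 0.08, adjusted p = 4.57e-11). After CTCF depletion 1 was called higher and 0 lower (median 0.06), against 5.41% and 7.03% of all genes. That gene was *IL6ST*, the shared signalling chain of the interleukin 6 family, at 202 CPM in control against 309 CPM in CTCF-depleted cells (0.61, SE 0.05, adjusted p = 6.44e-16). *STAT3*, which transmits that signal, was at 136 and 194 CPM (0.51, SE 0.06, adjusted p = 2.86e-10), within the threshold.

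Genes known as C/EBP targets in myeloid cells were tested for 20 of 24, and 4 (*LTF*, *LCN2*, *PPARG* and *PTGS2*) had 0 to 3 counts in each library. The list holds *CEBPE* itself and shares receptor genes with the list above. No count or median over the list is read from conversion, because many of its genes were at or near 0 at 0 h (*ELANE*, *PRTN3*, *CAMP*, *S100A8*, *S100A9*, *IL1RN* and *HP* were at 0) and passed the filter on low counts through the 96 h libraries. Between the 96 h conditions 2 were called higher and 1 lower, against 5.41% and 7.03% of all genes. The other 17 were neither, and the median was 0.05. *ITGAM*, the integrin CD11b, was at 128 CPM with and 285 CPM without CTCF (1.15, SE 0.06, adjusted p = 1.43e-24), and *IL1B*, the cytokine interleukin 1β, at 29.3 and 79.2 CPM (1.43, SE 0.08, adjusted p = 6.39e-22). *MPO*, myeloperoxidase, was at 8.41 and 5.17 CPM (-0.70, SE 0.22, adjusted p = 0.00712). The calprotectin genes *S100A8* and *S100A9* were lower within the threshold, at -0.40 (SE 0.05, adjusted p = 6.52e-10) and -0.48 (SE 0.05, adjusted p = 4.90e-12). The log2 fold changes of the listed targets lay on either side of 0, from -0.70 to 1.43. A link between them and the levels of *CEBPD* or *CEBPB* was not tested.

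**Figure D4:**
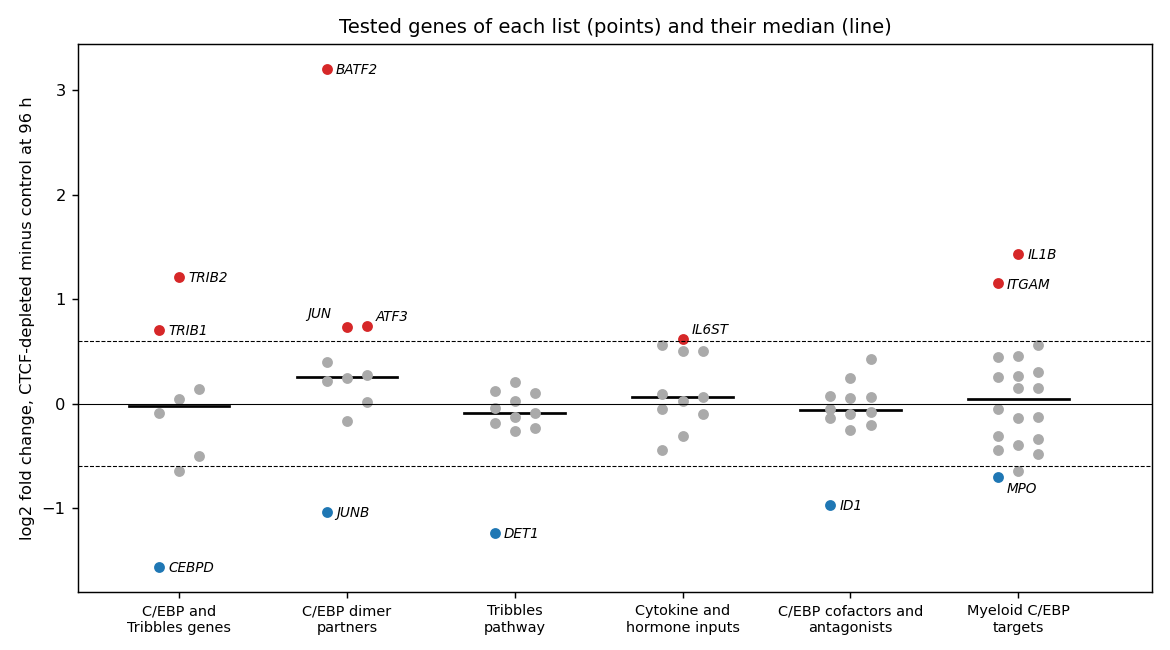
Log2 fold change between CTCF-depleted and control libraries at 96 h (y axis) for the 8 C/EBP and Tribbles genes and the tested genes of each related list (x axis), with red points called higher, blue called lower, grey neither, black lines at the medians and dashed lines at the fold change threshold of 0.6. The medians lay between -0.09 and 0.26, and *CEBPD* at -1.56 was the lowest point drawn.

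Genes that start within 500 kb of the start of these genes were examined because CTCF is known to set borders between regulatory neighbourhoods. Of 57 tested neighbours, 5 were called higher and 2 lower between CTCF-depleted and control cells, against 5.41% and 7.03% of all genes tested. Around *CEBPD*, 4 neighbours were tested. *SPIDR*, a gene of homologous recombination that starts 477 kb away, was called higher, at 152 ± 3.56 CPM in control against 296 ± 4.42 CPM in CTCF-depleted cells (log2 fold change 0.96, SE 0.05, adjusted p = 2.13e-23). *PRKDC* and *MCM4*, which share a promoter region on the other side, stood at -0.38 (SE 0.05, adjusted p = 7.18e-10) and -0.56 (SE 0.05, adjusted p = 2.33e-14), within the threshold, and *UBE2V2* at 0.06.

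Near *TRIB1*, 0 of 4 tested neighbours were called in either direction: the lowest was *SQLE*, of sterol synthesis, at -0.56 (SE 0.06, adjusted p = 5.30e-12), and the others, *ZNF572*, *NSMCE2* and *WASHC5* (listed as *KIAA0196*), stood at -0.19, -0.07 and 0.12. Neighbours of *CEBPB* (0 of 8) and of *CEBPA* and *CEBPG* (0 of 9 each) were not called either, and 1 of 7 around *CEBPZ* was (*PRKD3*, 0.67, SE 0.09, adjusted p = 1.07e-08). Around *CEBPE*, the densest of these regions, 3 of 25 were called higher (*AJUBA*, *THTPA* and *ZFHX2*) and 2 lower (*CDH24* and *SLC7A8*). *TRIB2* had 1 tested neighbour, the microRNA gene *MIR3125* inside it, at under 0.3 CPM in both 96 h conditions.

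Likeness of pattern was measured as the Euclidean distance between log2 CPM values centred on their mean over the 6 libraries, and it is a description, since the 6 points fall into 3 conditions. The 3 genes nearest to *CEBPD* were *AGRP*, *DES* and *BHLHE40*, at distances of 0.450 to 0.588. *AGRP* and *DES* were at 0.699 and 0.0375 CPM at 0 h, near the floor, so their distances depend on the prior count. *BHLHE40*, a basic helix-loop-helix repressor, went from 1.14 CPM at 0 h to 190.0 CPM with and 76.2 CPM without CTCF. Nearest to *CEBPB* were *LOC102723863*, the water and glycerol channel *AQP9* and the sugar phosphate transporter *SLC37A2* (0.252 to 0.304). These were at 0.445, 0 and 0.609 CPM at 0 h, with the same limit. Nearest to *TRIB1* were *CCDC62*, *GSTK1* and *TFE3* (0.168 to 0.203); *TFE3*, a factor of lysosomal genes, was at 21.5, 68.5 and 99.8 CPM in the 3 conditions. Nearest to *TRIB2* were *RADIL*, *SEMA3B* and *MIR181A1HG* (0.300 to 0.321), the last of which hosts microRNAs of the miR-181 family and was at 23.5, 4.62 and 9.01 CPM. The other nearest genes were *ZNF438*, *PLEKHG3* and *THSD7A* for *CEBPE* (0.140 to 0.288), *DHFRL1*, *DECR1* and *ALDH9A1* for *CEBPA* (0.0465 to 0.0748), *ZBED5*, *GBF1* and *CNOT2* for *CEBPG* (0.0610 to 0.0660), and *TTC1*, *EIF2S2* and *SLC25A32* for *CEBPZ* (0.0255 to 0.0561).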

How the data were processed

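Total RNA of 6 libraries was prepared with the Illumina Stranded Total RNA kit with Ribo-Zero Plus. The deposited values are raw counts per gene without normalization; the authors processed the reads with the nf-core/rnaseq pipeline, aligned them to hg38 with STAR 2.6.1d and counted protein-coding exons with featureCounts 2.0.6. Although the study names protein-coding exons, the deposited counts also list non-coding genes such as *CEBPA-DT* and *MIR3125*. The annotation release and strand setting are not given in the sources used here, and the *CEBPA* transgene has no entry of its own in the table.

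The counts were fitted in R 4.3.3 with edgeR 4.0.16 (filterByExpr, TMM, quasi-likelihood test, condition as the only term, all 6 libraries, 14758 genes). Intervals of log2 fold changes are the estimate ± 1.96 SE. Lengths and positions came from GENCODE release 44, matched by symbol or earlier symbol for 77.9% of the symbols, and promoter sequences from RefSeq (GRCh38.p14). Log2 CPM for the likeness of patterns used a prior count of 2. Python 3.11.15 (pandas 2.3.3) was used for the tables. Counting intervals are exact and cover counting error only, since reads were amplified without molecular identifiers.

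The 8 genes and all lists were chosen with earlier results of these data known. Genes named are the 8, members of the lists, tested genes starting within 500 kb, and the 3 genes of nearest pattern. Alternatives were DESeq2 1.42.0 (the tool named in the study), RLE scaling, no filter, at least 10 counts in every library, the 4 libraries compared only, glmTreat, other thresholds, a block for the replicate number, each library left out, and the longest transcript as length. No pairing by replicate number was used: across genes, the differences between replicates 1 and 2 correlated between groups at -0.0294 to 0.0109. Replicates of every group differed by more than sampling noise.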

Additional observations from a re-analysis of the deposited data

Results flagged for a closer look

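For 3 of the 8 genes, the change from 0 h to 96 h differed between cells with and without CTCF beyond the thresholds on adjusted p and fold change, 2 upward and 1 downward, against 5.41% and 7.03% of all genes tested. Both changes use the same 0 h libraries, which cancel, so these differences are the values between the 96 h conditions given above and no further test. *CEBPB*, at -0.50 (edgeR adjusted p = 5.41e-09), differed within the fold change threshold. *CEBPD* changed by a log2 fold change of 7.70 in control and 6.14 in CTCF-depleted cells, a difference of -1.56. *TRIB1* changed by 1.56 and 2.27, a difference of 0.70. *TRIB2* changed by -2.54 and -1.33, a difference of 1.21. Outlying libraries were not looked for, as each group holds 2.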

How the results depend on the processing

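From 0 h to 96 h control, the count called lower was 2 in place of 1 with no filter on low counts and with an adjusted p below 0.05 at any fold change, *CEBPZ* being added, and ranged from 1 to 2 with each library left out (2 without 0 h replicate 1, *CEBPZ* at -0.60). The count called higher, 4, was 3 with DESeq2, with glmTreat and with each of the 4 libraries left out, *CEBPE* being lost, 5 with an adjusted p below 0.05 at any fold change, and 2 with at least 10 counts in every library, where *CEBPD* and *CEBPE* are not tested. Between the 96 h conditions, the count called lower was 0 with at least 10 counts in every library, again because *CEBPD* is not tested, and 2 with an adjusted p below 0.05 at any fold change (*CEBPB* and *CEBPD*). The count called higher there was 1 with glmTreat (*TRIB2*). Between CTCF-depleted cells and 0 h, the count called higher was 2 in place of 3 with at least 10 counts in every library, and the count called lower was 2 with an adjusted p below 0.05 at any fold change. The counts did not move under the alternatives not named here. Over the related lists, an adjusted p below 0.05 in place of 0.01 together with no fold change threshold gave 13 genes lower in control cells in place of 7, and between the 96 h conditions 15 higher in place of 6 and 14 lower in place of 4. Shares of all genes tested were not computed at that setting, so no count at it is read as a result.

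With each library left out, the log2 fold change of *CEBPA* ranged from -0.21 to 0.00635 from 0 h to control, from -0.00720 to 0.15 between the 96 h conditions and from -0.14 to 0.0816 between CTCF-depleted cells and 0 h, and that of *CEBPG* from -0.12 to 0.0152 between the 96 h conditions; the cause was not tested. Over all alternatives *CEBPD* ranged from -1.59 to -1.46, *TRIB1* from 0.69 to 0.78 and *TRIB2* from 1.20 to 1.29 between the 96 h conditions.

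The replicate numbers do not pair the samples by their correlation. With the replicate number as a block, 4 genes were called higher and 1 lower in control cells, 2 and 1 between the 96 h conditions and 3 and 1 between CTCF-depleted cells and 0 h, as without it.

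The low counts of *CEBPE*, and of *CEBPD* at 0 h, limit what their fold changes can show. Transcript levels do not give the amount of C/EBP or Tribbles protein, *CEBPA* reads of the transgene were not separated, and 96 h is the only later time.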
